A study of Mus musculus with 17 samples.

Results

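The 50 genes described here encode the machinery of mitosis and cytokinesis, and they were followed in mouse small intestinal organoids that differentiated with or without KPT-330. They were taken by symbol from a fixed list, which was chosen with earlier results of these data known. Comparisons of the list with all genes are therefore not an independent test of it. All 50 genes were found among the 26422 genes listed in the count tables. Each passed the filter on low counts in every comparison. The list was divided by role into the cyclin and CDK1 engine (9 genes), spindle assembly and motors (8), the chromosomal passenger complex (4), the spindle checkpoint (5), the kinetochore and centromere (7), the anaphase-promoting complex with securin (3), condensin and chromosome structure (7) and cytokinesis (7).

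Organoids had been grown from small intestinal crypts of male and female wild-type C57BL/6 mice (age 1 to 6 months), and each sample pooled several Matrigel domes. At day 0 they were in ENR+CV, the medium that keeps them enriched for stem cells (2 libraries). They were then moved to ENR+CD, which directs them towards Paneth cells, without KPT-330 (7 libraries, called control) or with 160 nM KPT-330, an inhibitor of the nuclear exporter XPO1 (8 libraries), and sampled at days 0.25, 1, 2, 3, 4 and 6. There were 2 libraries per condition at day 6 and 2 with KPT-330 at day 3, whereas each remaining condition and day had 1. The single libraries were replicate 1 at days 0.25 and 1, and replicate 2 at days 2 and 4 and in the day 3 control. Between days 1 and 2 the replicate number therefore changed with the day, and the effects of each cannot be told apart. The labels number replicates 1 and 2 without saying what they stand for, so p-values measure the spread between libraries. The 17 libraries, made with Seq-Well S3 and counted by unique molecular identifiers (UMIs), held 531 to 1547 cells kept by the authors and 3458887 to 12433109 UMIs. Among the kept cells, 14 barcodes occurred in more than 1 library. Summed markers of non-epithelial and of tuft cells reached at most 0.0285 and 0.0670 UMIs per 10000 in any library, and markers of Paneth cells lay between 332 and 1227 UMIs per 10000 in the ENR+CD libraries of days 3 to 6, with or without KPT-330.

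Entry into mitosis is driven by CDK1 bound to cyclin A or cyclin B. The spindle and its kinesin motors then align the chromosomes, which are compacted by condensin and attached through kinetochores. The spindle checkpoint holds the cell until every kinetochore is attached, after which the anaphase-promoting complex degrades securin and cyclin B, and a contractile ring divides the cytoplasm. In the intestinal crypt, stem cells and transit-amplifying cells divide, whereas Paneth cells and most other mature lineages have left the cell cycle.

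Many genes of this kind are transcribed late in the cell cycle through 2 short promoter elements, the cell cycle genes homology region (CHR, TTTGAA), which is bound by the MuvB complexes, and the CCAAT box, which is bound by NF-Y. RefSeq promoters of build GRCm38.p6, running from 250 bases before to 50 bases after the start, were found for 42 of the 50 genes, and TTTGAA and CCAAT were searched on both strands. TTTGAA occurred in 30 of the 42 promoters (71.4%), against 11.5% of 9452 promoters of the genes tested and 18.1% of all 27025 promoters. CCAAT also occurred in 30 of the 42 (71.4%), against 39.3% of the genes tested and 37.9% of all. Both motifs stood in 26 promoters (61.9%), against 4.94% of the genes tested. These are matches of letters and not measured binding. The promoters of 6 genes are shown because they carry the contrast in the results: Mki67, Cdc20, Ube2c and Ttk were lowered late by KPT-330, whereas Bub3 and Pttg1 were not. Each line gives the 200 bases before and the first 20 bases after the start, 5′ to 3′ on the strand of the gene, and capitals mark TTTGAA or CCAAT on either strand (TTCAAA and ATTGG on the reverse).
Mki67 (chr7:135716360-135716579, minus strand): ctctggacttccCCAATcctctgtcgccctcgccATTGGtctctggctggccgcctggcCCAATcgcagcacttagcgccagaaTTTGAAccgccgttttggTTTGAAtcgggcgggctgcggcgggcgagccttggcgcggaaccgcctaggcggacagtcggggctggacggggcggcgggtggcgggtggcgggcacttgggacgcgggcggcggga
Cdc20 (chr4:118437324-118437543, minus strand): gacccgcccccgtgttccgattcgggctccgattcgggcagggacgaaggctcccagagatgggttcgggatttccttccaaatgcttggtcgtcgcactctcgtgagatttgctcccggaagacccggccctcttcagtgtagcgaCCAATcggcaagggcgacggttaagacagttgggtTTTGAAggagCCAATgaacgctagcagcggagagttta
Ube2c (chr2:164769729-164769948, plus strand): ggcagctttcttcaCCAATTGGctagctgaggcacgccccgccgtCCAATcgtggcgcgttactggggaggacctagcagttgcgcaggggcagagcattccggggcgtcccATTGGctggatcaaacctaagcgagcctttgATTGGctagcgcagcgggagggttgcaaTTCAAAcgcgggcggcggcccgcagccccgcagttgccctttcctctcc
Ttk (chr9:83834489-83834708, plus strand): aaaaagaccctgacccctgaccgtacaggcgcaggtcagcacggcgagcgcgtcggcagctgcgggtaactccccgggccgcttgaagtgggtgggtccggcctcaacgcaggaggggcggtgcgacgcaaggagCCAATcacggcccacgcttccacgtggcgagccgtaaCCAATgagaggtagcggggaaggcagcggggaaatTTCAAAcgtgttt
Bub3 (chr7:131560170-131560389, plus strand): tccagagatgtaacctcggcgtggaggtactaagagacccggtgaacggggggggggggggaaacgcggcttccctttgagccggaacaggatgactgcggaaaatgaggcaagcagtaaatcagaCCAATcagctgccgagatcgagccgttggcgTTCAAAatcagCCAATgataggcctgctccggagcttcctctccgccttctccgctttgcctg
Pttg1 (chr11:43425962-43426181, minus strand): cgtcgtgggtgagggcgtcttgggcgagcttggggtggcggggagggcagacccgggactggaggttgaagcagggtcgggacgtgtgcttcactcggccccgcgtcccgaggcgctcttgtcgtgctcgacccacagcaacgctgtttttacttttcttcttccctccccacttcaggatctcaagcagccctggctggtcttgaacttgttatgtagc
Mki67 held TTTGAA at 2 places and CCAAT at 3, and Ube2c held CCAAT at 5, of which a pair overlaps. Bub3 held both motifs although its level did not pass the test, and Pttg1 held neither, also in the whole window of 300 bases. The Pttg1 start used lay inside the gene as listed below (chr11:43420250-43426251, minus strand). Its window did not reach the listed 5′ end of the gene, so the bases before that end were not searched. The starts used for Bub3, Cdc20 and Ube2c also lay inside their genes as listed below. For Bub3 (chr7:131560222-131571895, plus strand) every marked match lay past the listed 5′ end. Among the 36 genes with a promoter that were called lower late, TTTGAA was present in 26, and among the 6 that were not called it was present in 4.

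Without KPT-330, transcripts of the 50 genes fell steeply during the first 2 days in ENR+CD and then stayed at a low level. Their summed UMIs were 46.7 and 61.0 per 10000 UMIs at day 0, 60.4 at day 0.25, 24.2 at day 1, 12.6 at day 2, 8.43 at day 3, 9.93 at day 4, and 10.1 and 12.2 at day 6. With KPT-330 they were 48.8 at day 0.25, 21.6 at day 1, 7.76 at day 2, 4.62 and 2.39 at day 3, 3.05 at day 4, and 2.87 and 4.48 at day 6. The KPT-330 library was the lower at each day, and from day 3 every KPT-330 library lay below every control library. These sums are not scaled by the TMM factors of the tests. In the late libraries those factors were 0.706 to 0.897 with KPT-330 and 1.02 to 1.16 in control. In the tests, library totals alone moved the late median of all genes by -0.38 on the log2 scale. In such sums, fewer dividing cells and fewer of these transcripts per dividing cell cannot be told apart.

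**Figure D1:**
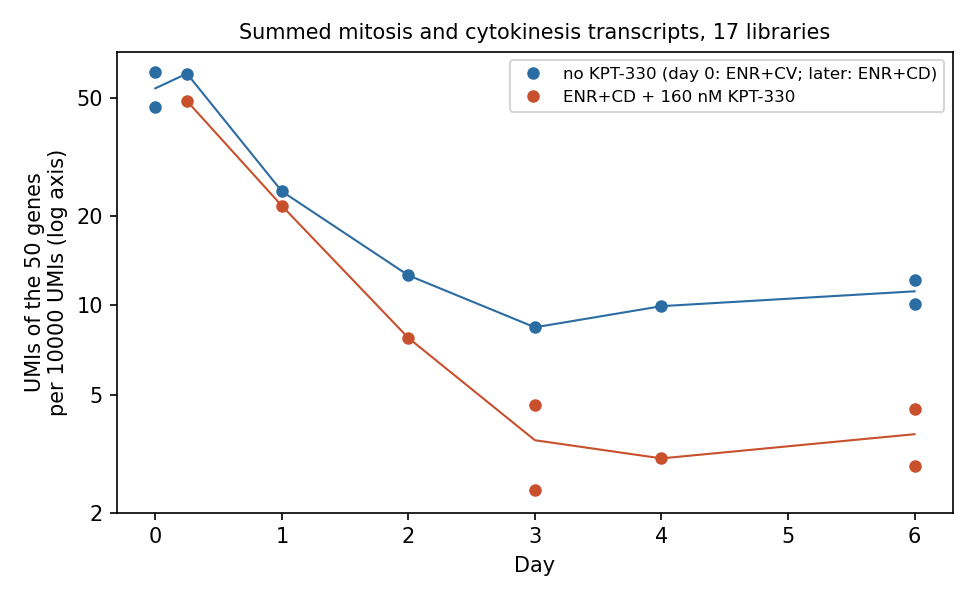
UMIs of the 50 mitosis and cytokinesis genes per 10000 UMIs (log axis) against day, 1 point per library, with lines through the means of each day. Control libraries level off at 8.43 to 12.2 from day 3 and KPT-330 libraries at 2.39 to 4.62.

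Over the 9 libraries without KPT-330, 48 of the 50 genes fell with day and none rose, in an edgeR quasi-likelihood test of the slope adjusted over 12493 genes. Among all genes tested, 19.9% were called lower. The median slope was -0.40 on the log2 scale per day, against 0.00 for all genes. The smallest p-values belonged to Cdc25c, a phosphatase that activates CDK1 (slope -0.54 ± 0.08 (SE), adjusted p = 0.00092), to Ccnb1, the cyclin B1 gene (-0.48 ± 0.08, adjusted p = 0.0023), and to Knstrn, which helps attach kinetochores to the spindle (-0.46 ± 0.08, adjusted p = 0.0023). The genes that did not pass were Bub3, with a slope of -0.10 ± 0.04 (adjusted p = 0.054), and Pttg1, the securin gene, with -0.05 ± 0.07 (adjusted p = 0.61). The course was not straight: 38 genes were highest at day 0.25 and 12 at day 0, whereas 31 were lowest at day 3, 16 at day 4, 2 at day 6 and 1 at day 1. From day 3 to day 6 the control mean was higher for 47 of the 50 genes, with a median ratio of 1.35, a change set by 1 library at day 3 and 2 at day 6. The ratio of day 0 to day 6 ranged from 1.48 for Pttg1 to 8.61 for Cdkn3 and had a median of 4.68. Without the ENR+CV libraries, which differ from the others in medium as well as day, 28 genes passed the test, against 9.3% of 12442 genes called lower, with a median slope of -0.36.

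During days 0.25 to 2, KPT-330 lowered none of the 50 genes past the threshold. The edgeR test called 0 of 50, against 0.148% of 12812 genes called lower, and DESeq2 also called 0. At an unadjusted p under 0.05, edgeR counted 5 genes, all lower with KPT-330 (Ccna2, Cdc25c, Foxm1, Aurka and Smc2), where 8.14% of all genes were lower. DESeq2 counted 3 of the 50, where 11.7% of all genes passed in either direction. These counts are near or under those of all genes. The fold change was negative for 46 genes, with a median of -0.24 on the log2 scale against -0.01 for all genes. Leaving out the control or the KPT-330 library of day 2 brought the median to -0.10 in either case. By day, 40 genes lay below control at day 0.25 (median log2 ratio -0.21), 29 at day 1 (-0.04) and 49 at day 2 (-0.50), while 54.7%, 50.6% and 48.5% of all genes did so.

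During days 3 to 6, KPT-330 lowered 44 of the 50 genes and raised none. Among all genes tested, 13.6% were called lower. The median log2 fold change was -1.30, a 2.47-fold reduction, against 0.01 for all genes, and 38 genes changed by at least 1 on the log2 scale. In 39 of the 50 genes every control library lay above every KPT-330 library, against 10.1% of 12971 genes. The lowest value belonged to Kif2c, a kinesin that depolymerises microtubules at the centromere, at -2.16 ± 0.38 (adjusted p = 0.0019), and the smallest p-values to Ncapg, Ttk and Cenpe. Some of these values rest on few UMIs. The late KPT-330 libraries held 17, 9, 6, 2 and 5 UMIs of Kif2c and 10, 6, 5, 4 and 7 of Ttk. The 6 genes that did not pass were Pttg1 (0.08 ± 0.14), Bub3 (-0.12 ± 0.12), Cks1b (-0.13 ± 0.13), Cks2 (-0.51 ± 0.51), Spc25 (-0.80 ± 0.37) and Cdkn3 (-1.10 ± 0.42), with adjusted p-values between 0.064 and 0.72. By day, 47 genes lay below control at day 3 (median log2 ratio -1.17), 50 at day 4 (-1.52) and 49 at day 6 (-1.30). Of all genes, 50.1%, 51.9% and 52.1% lay below control at these days. Replicate 1 of KPT-330 at day 3 exceeded replicate 2 by a median of 1.08 on the log2 scale and was the higher in 47 genes. At day 6 the median of replicate 1 minus replicate 2 was -0.38 with KPT-330 and -0.26 in control.

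**Figure D2:**
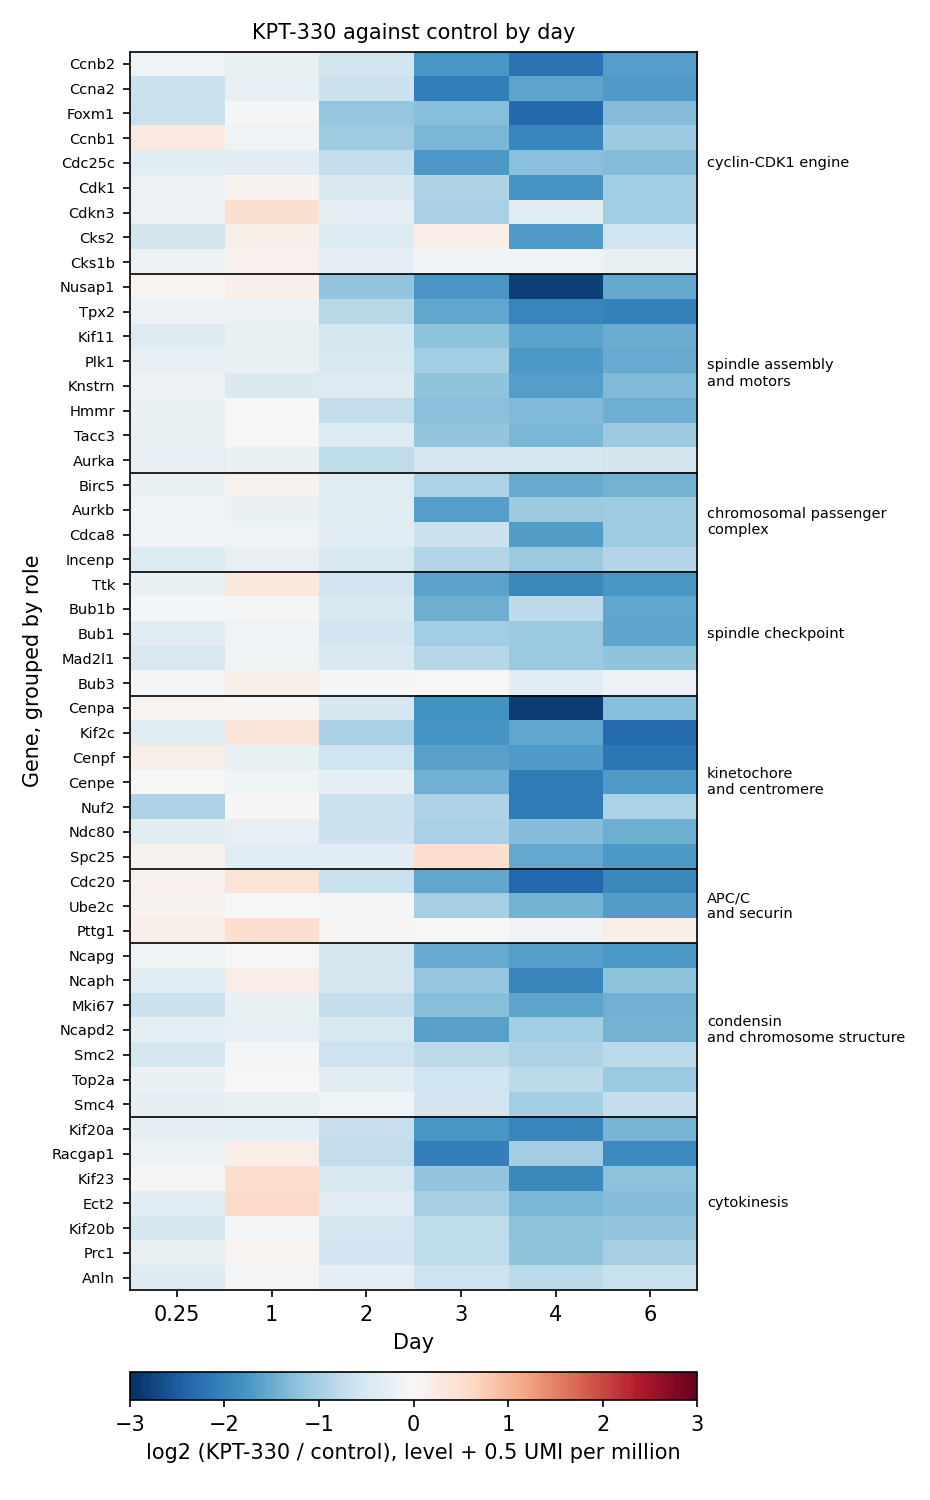
log2 ratio of KPT-330 to control for each of the 50 genes (rows, grouped by role) at each day (columns), from TMM-scaled CPM with 0.5 added and replicates averaged. Blue is lower with KPT-330; the median passes from -0.04 at day 1 to -0.50 at day 2 and -1.52 at day 4, and Pttg1, Bub3 and Cks1b lie between -0.34 and 0.50 at every day.

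The difference between late and early effects was negative for all 50 genes, with a median of -1.02 on the log2 scale against 0.03 for all genes, but none passed the edgeR test after adjustment (smallest adjusted p = 0.138). None of the 12812 genes passed, so 0.0% were called lower. Over all genes, 1333 had an unadjusted p under 0.05 in either direction. At an unadjusted p under 0.05, 33 of the 50 genes were lower late, against 5.04% of all genes. With all barcodes within the stated limits the median was -0.66, with 49 genes negative. In that fit 16 of the 50 genes had an unadjusted p under 0.05, against 1155 of 13046 genes in either direction. DESeq2 called 11 of the 50 genes lower, against 0.32% of all genes, with 37 at an unadjusted p under 0.05, against 8.19% of all genes in either direction. Without the filter on low counts edgeR called 29, against 0.794% of 24050 genes. The smallest p-values of the difference belonged to Ttk (-1.84), Ncapg (-1.50) and Cenpe (-1.53). Without replicate 1 of KPT-330 at day 3, 6 genes passed, against 0.103% of 12585 genes called lower.

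**Figure D3:**
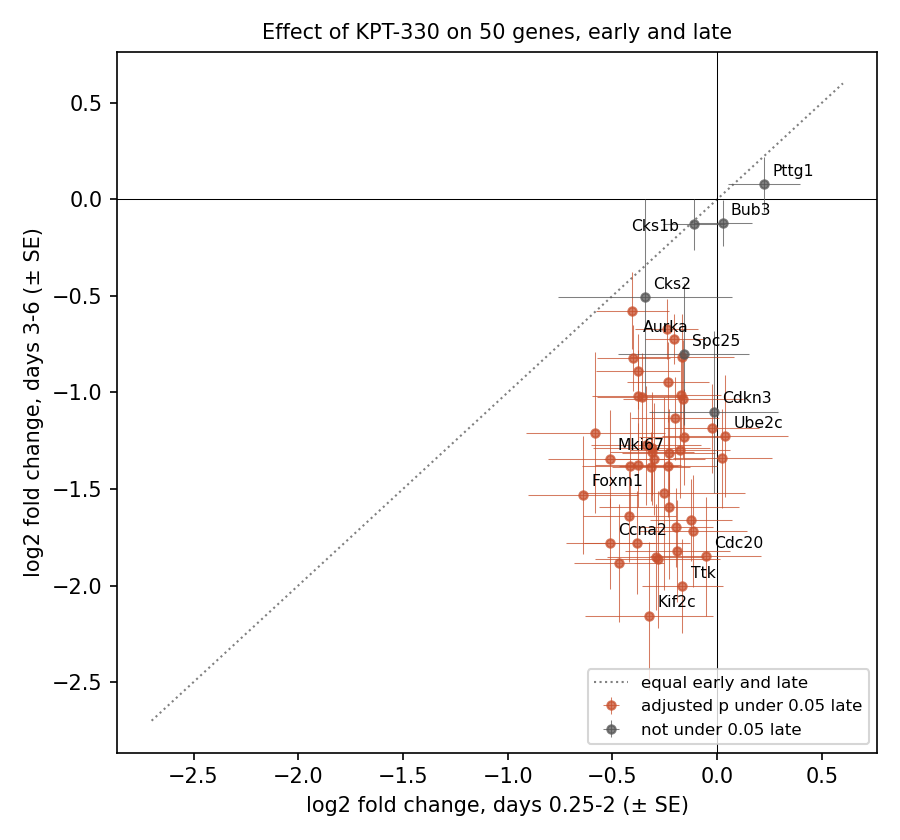
log2 fold change by KPT-330 (± SE) in days 0.25 to 2 (horizontal) and days 3 to 6 (vertical) for the 50 genes. All points lie below the dotted line of equal effects, most between -1 and -2 late and near -0.24 early, while Pttg1, Bub3 and Cks1b lie close to 0 on both axes.

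In the cyclin and CDK1 engine, 6 of 9 genes fell late with KPT-330 and 9 of 9 fell with day in untreated organoids. Levels are given here and for the other roles as TMM-scaled UMIs per 1000000 UMIs (CPM), which count 3′ tags and compare libraries, not genes. Ccna2 (chr3:36564865-36572150), cyclin A2, stood at 146 and 141 at day 0. Control libraries had 194, 62.8, 25.04, 17.5 and 15.2 at days 0.25, 1, 2, 3 and 4, and 22.6 and 24.3 at day 6. KPT-330 libraries of Ccna2 were at 125, 52.7 and 15.97 at days 0.25, 1 and 2, 7.17 and 1.85 at day 3, 4.76 at day 4, and 6.35 and 7.40 at day 6. The KPT-330 library was the lower at each day, and the groups did not overlap from day 3 (log2 fold change -1.78 ± 0.24, adjusted p = 0.0004). Cdk1 (chr10:69335146-69352938), the mitotic kinase itself, stood at 78.7 and 71.1 at day 0. In control, Cdk1 had 78.1 at day 0.25, 28.8 at day 1, 14.7 at day 2, 8.63 at day 3, 12.1 at day 4, and 14.8 and 16.5 at day 6. For Cdk1, the KPT-330 values were 69.3, 31.1 and 10.8 at days 0.25, 1 and 2, 8.97 and 2.02 at day 3, 3.17 at day 4, and 6.99 and 7.68 at day 6. Its late groups overlapped at day 3, where replicate 1 with KPT-330 lay above the control, and its late fold change was -1.04 ± 0.30, adjusted p = 0.023. Foxm1 (chr6:128362967-128376146) encodes a transcription factor of mitotic genes and had 36.5 and 49.6 at day 0. Foxm1 in control was at 52.4, 20.8 and 11.6 at days 0.25 to 2, at 7.17 and 7.29 at days 3 and 4, and at 6.88 and 9.73 at day 6. With KPT-330, Foxm1 was at 32.7, 20.2 and 4.93 at days 0.25, 1 and 2, 4.10 and 1.68 at day 3, 1.06 at day 4, and 3.18 and 2.84 at day 6. Every late KPT-330 library lay below the late controls (-1.53 ± 0.31, adjusted p = 0.0034), and the early fold change of -0.64 ± 0.26 had an adjusted p of 0.28. Ccnb1 (chr13:100778650-100786570), cyclin B1, was among the least counted, with 16.9 and 19.2 at day 0. Control libraries had 17.9, 7.62, 4.17, 2.80 and 2.47 at days 0.25, 1, 2, 3 and 4, and 2.29 and 3.38 at day 6. KPT-330 libraries of Ccnb1 were at 22.00, 7.01 and 1.73 at days 0.25, 1 and 2, 1.92 and 0.168 at day 3, 0.264 at day 4, and 1.27 and 0.853 at day 6. Ccnb1 had 15, 1, 1, 4 and 3 UMIs in these late KPT-330 libraries. It fell late (-1.52 ± 0.50, adjusted p = 0.036), as did Cdc25c (-1.88 ± 0.30, adjusted p = 0.0011), whose values were 18.99 and 22.7 at day 0, 26.8 at day 0.25 in control against 21.4 with KPT-330, 2.60 to 3.59 in the late controls and 0.504 to 1.27 in the late KPT-330 libraries. The late call was lost in 7 of 25 alternative analyses for Ccnb1, in 4 for Cdk1 and in 1 for Cdc25c. Cks1b and Cks2, small subunits of the CDK complexes, and Cdkn3, a phosphatase of CDKs, were the engine genes that did not pass late. Cks2 was not listed in the KPT-330 library of day 4 and was taken as 0 there.

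All 8 genes of spindle assembly and motors fell late with KPT-330 and with day in untreated organoids. Kif11 (chr19:37376403-37421859), the kinesin that pushes spindle poles apart, had 112 and 110.3 at day 0. In control, Kif11 had 153 at day 0.25, 59.4 at day 1, 26.04 at day 2, 16.5 at day 3, 17.8 at day 4, and 21.8 and 21.6 at day 6. For Kif11, the KPT-330 values were 116, 51.3 and 17.8 at days 0.25, 1 and 2, 11.02 and 4.03 at day 3, 5.55 at day 4, and 6.67 and 8.25 at day 6. It was lower with KPT-330 at each day, with no overlap late (-1.38 ± 0.22, adjusted p = 0.001). Tpx2 (chr2:152847964-152895321), which activates Aurora kinase A on the spindle, had 103 and 131 at day 0. Tpx2 in control was at 122, 47.9 and 32.3 at days 0.25 to 2, at 16.9 and 21.4 at days 3 and 4, and at 24.3 and 33.6 at day 6. With KPT-330, Tpx2 was at 107, 42.6 and 18.1 at days 0.25, 1 and 2, 9.10 and 3.19 at day 3, 5.02 at day 4, and 4.45 and 9.67 at day 6. The late groups did not overlap (-1.78 ± 0.27, adjusted p = 0.00077). Knstrn (chr2:118814003-118853957) had 83.3 and 92.6 at day 0. Control libraries had 90.7, 41.8, 21.3, 12.4 and 12.6 at days 0.25, 1, 2, 3 and 4, and 12.7 and 16.9 at day 6. KPT-330 libraries of Knstrn were at 82.1, 30.8 and 16.1 at days 0.25, 1 and 2, 7.30 and 3.53 at day 3, 3.70 at day 4, and 3.81 and 7.96 at day 6. The KPT-330 value was the lower at each day (-1.31 ± 0.22, adjusted p = 0.0014 late). Aurka (chr2:172356190-172370535), Aurora kinase A, had 49.6 and 37.8 at day 0. In control, Aurka had 48.00 at day 0.25, 15.2 at day 1, 9.71 at day 2, 3.81 at day 3, 4.82 at day 4, and 6.25 and 6.13 at day 6. For Aurka, the KPT-330 values were 40.7, 13.2 and 5.47 at days 0.25, 1 and 2, 2.95 and 2.18 at day 3, 3.17 at day 4, and 4.76 and 3.41 at day 6. The late groups overlapped, and the late change was the smallest of this role (-0.58 ± 0.20, adjusted p = 0.044) and did not pass in 13 of 25 alternative analyses.

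The 4 genes of the chromosomal passenger complex, which corrects faulty attachments, all fell late and with day. Cdca8 (chr4:124918465-124939311), borealin, had 121 and 133 at day 0. Cdca8 in control was at 139.9, 56.7 and 23.95 at days 0.25 to 2, at 14.6 and 17.9 at days 3 and 4, and at 19.9 and 25.2 at day 6. With KPT-330, Cdca8 was at 131, 52.7 and 18.7 at days 0.25, 1 and 2, 12.6 and 6.72 at day 3, 5.28 at day 4, and 10.2 and 10.5 at day 6. At day 3 replicate 1 with KPT-330 lay close below the control, and the late fold change was -1.01 ± 0.20, adjusted p = 0.0031. Incenp (chr19:9872296-9899551), the scaffold of the complex, had 87.4 and 99.8 at day 0. Control libraries had 114, 43.8, 27.1, 19.7 and 26.3 at days 0.25, 1, 2, 3 and 4, and 22.9 and 28.3 at day 6. KPT-330 libraries of Incenp were at 86.2, 36.7 and 19.4 at days 0.25, 1 and 2, 16.02 and 6.89 at day 3, 11.9 at day 4, and 14.6 and 12.5 at day 6. It fell by less than the median gene (-0.89 ± 0.19, adjusted p = 0.005), with no overlap late.

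In the spindle checkpoint, 4 of 5 genes fell late and 4 of 5 with day, the exception being Bub3 in both. Bub1b (chr2:118598211-118641591), the BubR1 checkpoint protein, had 78.7 and 67.6 at day 0. In control, Bub1b had 71.1 at day 0.25, 32.5 at day 1, 18.96 at day 2, 13.00 at day 3, 12.2 at day 4, and 14.9 and 20.5 at day 6. For Bub1b, the KPT-330 values were 68.7, 31.4 and 13.8 at days 0.25, 1 and 2, 7.05 and 2.69 at day 3, 6.87 at day 4, and 3.81 and 8.25 at day 6. Late groups did not overlap (-1.30 ± 0.25, adjusted p = 0.0029). Ttk (chr9:83834689-83872389), the MPS1 kinase that starts checkpoint signalling, had 24.7 and 29.9 at day 0. Ttk in control was at 37.6, 11.1 and 6.71 at days 0.25 to 2, at 4.48 and 6.43 at days 3 and 4, and at 6.09 and 6.98 at day 6. With KPT-330, Ttk was at 32.5, 14.01 and 4.38 at days 0.25, 1 and 2, 1.28 and 1.01 at day 3, 1.32 at day 4, and 1.27 and 1.99 at day 6. It was above control at day 1 and below it at the other days, and its late fold change was -2.002 ± 0.24, adjusted p = 0.00026. Bub3 (chr7:131560222-131571895), a checkpoint adaptor, had 78.9 and 74.4 at day 0. Control libraries had 82.9, 47.00, 50.2, 46.96 and 46.5 at days 0.25, 1, 2, 3 and 4, and 44.6 and 55.8 at day 6. KPT-330 libraries of Bub3 were at 80.8, 53.2 and 47.99 at days 0.25, 1 and 2, 43.9 and 50.6 at day 3, 36.7 at day 4, and 35.9 and 54.6 at day 6. Its control values of day 6 lay below those of day 0, and late KPT-330 and control libraries overlapped. At day 4 the ratio of the counts of the single libraries was 0.790, with a 95% counting interval of 0.646 to 0.962.

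In the kinetochore and centromere, 6 of 7 genes fell late and 7 of 7 with day, and the late median of -1.66 was the lowest of the 8 roles. Cenpe (chr3:135212537-135273611), the kinesin that carries chromosomes to the spindle equator, had 117 and 156 at day 0. In control, Cenpe had 162 at day 0.25, 76.2 at day 1, 36.2 at day 2, 18.7 at day 3, 23.6 at day 4, and 24.3 and 31.3 at day 6. For Cenpe, the KPT-330 values were 164, 69.8 and 29.4 at days 0.25, 1 and 2, 9.99 and 4.20 at day 3, 5.02 at day 4, and 6.67 and 9.96 at day 6. Its values with and without KPT-330 were nearly equal at day 0.25 and apart late (-1.66 ± 0.21, adjusted p = 0.00033). Cenpf (chr1:189640606-189688086), a large kinetochore protein, had 108 and 125 at day 0. Cenpf in control was at 112, 54.1 and 31.8 at days 0.25 to 2, at 18.6 and 23.5 at days 3 and 4, and at 29.04 and 39.7 at day 6. With KPT-330, Cenpf was at 127, 46.5 and 20.8 at days 0.25, 1 and 2, 9.74 and 3.19 at day 3, 6.87 at day 4, and 5.40 and 9.39 at day 6. It was above control at day 0.25 and below it from day 1, and fell late (-1.82 ± 0.26, adjusted p = 0.00063). Spc25, a subunit of the NDC80 complex, was the member of this role that did not pass.

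In the anaphase-promoting complex with securin, 2 of 3 genes fell late and with day. Cdc20 (chr4:118432901-118437352), the activator of the complex in mitosis, had 64.4 and 71.98 at day 0. Control libraries had 57.8, 17.3, 17.2, 9.64 and 10.3 at days 0.25, 1, 2, 3 and 4, and 10.1 and 13.95 at day 6. KPT-330 libraries of Cdc20 were at 62.9, 22.98 and 10.7 at days 0.25, 1 and 2, 3.84 and 2.18 at day 3, 1.59 at day 4, and 1.27 and 5.40 at day 6. It was above control at days 0.25 and 1 and below it from day 2, with no overlap late (-1.85 ± 0.31, adjusted p = 0.0013). Ube2c (chr2:164769898-164778822), the ubiquitin-conjugating enzyme of the complex, had 83.1 and 121 at day 0. In control, Ube2c had 99.2 at day 0.25, 38.8 at day 1, 23.8 at day 2, 15.1 at day 3, 15.1 at day 4, and 15.98 and 29.8 at day 6. For Ube2c, the KPT-330 values were 107, 38.95 and 23.1 at days 0.25, 1 and 2, 12.2 and 4.37 at day 3, 5.28 at day 4, and 3.49 and 11.9 at day 6. Control and KPT-330 were close until day 2 and apart late (-1.23 ± 0.31, adjusted p = 0.012). Pttg1 (chr11:43420250-43426251), securin, had 17.7 and 26.7 at day 0. Pttg1 in control was at 11.1, 8.36 and 10.6 at days 0.25 to 2, at 10.1 and 9.76 at days 3 and 4, and at 15.03 and 15.01 at day 6. With KPT-330, Pttg1 was at 12.5, 12.05 and 10.9 at days 0.25, 1 and 2, 8.71 and 11.6 at day 3, 8.98 at day 4, and 16.5 and 17.9 at day 6. Its day 6 values were higher than its day 4 values in both conditions, and late KPT-330 and control libraries overlapped.

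All 7 genes of condensin and chromosome structure fell late and with day. Mki67 (chr7:135689784-135716361), which coats mitotic chromosomes and is the usual marker of cycling cells, had the most UMIs of the 50 genes, with 944 and 1169 at day 0. Control libraries had 1412, 500.2, 222, 124 and 166 at days 0.25, 1, 2, 3 and 4, and 194 and 189 at day 6. KPT-330 libraries of Mki67 were at 903, 434 and 135 at days 0.25, 1 and 2, 91.1 and 27.9 at day 3, 55.2 at day 4, and 71.8 and 67.98 at day 6. It was lower with KPT-330 at each day, and the late fold change was -1.34 ± 0.25, adjusted p = 0.0024. Top2a (chr11:98992943-99024189), the topoisomerase that untangles sister chromatids, had 279 and 309.6 at day 0. In control, Top2a had 375 at day 0.25, 143 at day 1, 56.9 at day 2, 46.3 at day 3, 50.1 at day 4, and 86.2 and 90.7 at day 6. For Top2a, the KPT-330 values were 326, 143 and 45.6 at days 0.25, 1 and 2, 49.7 and 18.3 at day 3, 29.1 at day 4, and 38.1 and 42.7 at day 6. The late groups overlapped at day 3, and the fold change was -0.82 ± 0.22, adjusted p = 0.017, a call lost in 2 of 25 alternative analyses. Ncapg (chr5:45669919-45700546), a condensin subunit, had 61.2 and 73.4 at day 0. Ncapg in control was at 77.8, 28.8 and 13.7 at days 0.25 to 2, at 9.75 and 9.39 at days 3 and 4, and at 11.9 and 14.4 at day 6. With KPT-330, Ncapg was at 71.98, 28.9 and 9.49 at days 0.25, 1 and 2, 4.36 and 2.18 at day 3, 2.64 at day 4, and 4.13 and 3.13 at day 6. It was close to control until day 1 and had the smallest late p-value of the 50 genes (-1.70 ± 0.20, adjusted p = 0.00025).

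All 7 cytokinesis genes fell late and with day. Kif20b (chr19:34922361-34975745), a kinesin of the midbody, had 87.4 and 105 at day 0. Control libraries had 121, 46.3, 23.7, 10.98 and 18.5 at days 0.25, 1, 2, 3 and 4, and 17.3 and 14.6 at day 6. KPT-330 libraries of Kif20b were at 84.1, 45.4 and 16.5 at days 0.25, 1 and 2, 9.87 and 3.86 at day 3, 7.66 at day 4, and 6.35 and 7.11 at day 6. It was lower with KPT-330 at each day (-1.02 ± 0.23, adjusted p = 0.006 late). Ect2 (chr3:27097222-27153878), the exchange factor that activates RhoA at the division plane, had 77.9 and 79.9 at day 0. In control, Ect2 had 87.3 at day 0.25, 34.7 at day 1, 20.7 at day 2, 14.9 at day 3, 17.8 at day 4, and 22.3 and 31.3 at day 6. For Ect2, the KPT-330 values were 70.3, 52.1 and 16.5 at days 0.25, 1 and 2, 10.6 and 4.87 at day 3, 6.60 at day 4, and 10.5 and 10.5 at day 6. At day 1 it was higher with KPT-330, with a ratio of 1.501 and a 95% counting interval of 1.22 to 1.85 between the libraries, and it fell late (-1.19 ± 0.23, adjusted p = 0.0028).

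**Figure D4:**
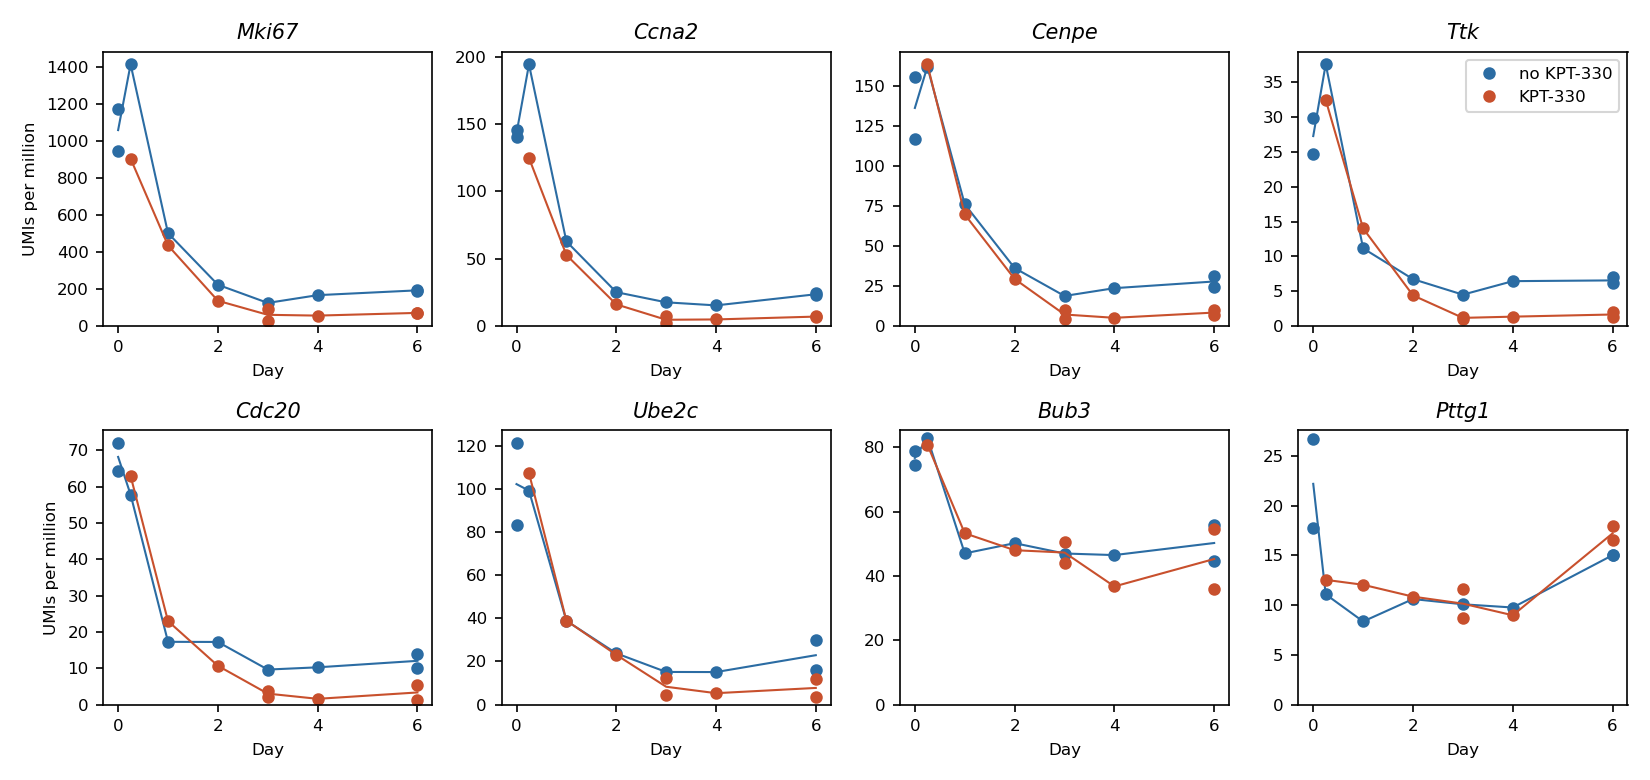
TMM-scaled CPM against day for 8 of the genes, 1 point per library (blue without KPT-330, red with KPT-330) and lines through the means of each day. Mki67, Ccna2, Cenpe, Ttk, Cdc20 and Ube2c separate late, while Bub3 and Pttg1 overlap over days 3 to 6.

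At day 0.25 the ratio of KPT-330 to control varied among the genes. The counts of the 2 libraries gave a ratio of KPT-330 to control with a 95% interval below 1 for 24 genes, above 1 for 1 gene and holding 1 for 25, where the intervals cover counting error only and compare libraries, not conditions. The lowest ratios were 0.515 for Nuf2 (0.396 to 0.663), a kinetochore subunit, 0.624 for Foxm1 (0.518 to 0.750), 0.639 for Mki67 (0.617 to 0.662) and 0.642 for Ccna2 (0.584 to 0.705). The highest were 1.14 for Cenpf (1.03 to 1.26) and 1.23 for Ccnb1 (0.949 to 1.58). Between them, Cdc20 had 1.09 (0.941 to 1.26), Ube2c 1.08 (0.968 to 1.21) and Cenpa, the centromeric histone, 1.06 (0.937 to 1.19). Median log2 ratios by role ran from -0.30 in condensin and chromosome structure and -0.26 in cytokinesis to 0.01 in the kinetochore and centromere and 0.12 in the anaphase-promoting complex with securin. At day 1 the interval lay below 1 for 4 genes, above 1 for 2 and held 1 for 44. At day 2 it lay below 1 for 40 genes and above 1 for none, and at day 4 for 44 and none. The share of all genes with such intervals was not counted, so these counts have no background. Replicate libraries of the same condition and day also differed by more than counting error. Their chi-square per degree of freedom over genes was 11.9 to 34.2, where counting error alone gives about 1.

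The 37 DNA replication genes, whose products copy the genome in S phase, are given beside them. Their summed level at day 0.25 was 34.9 UMIs per 10000 in control and 15.7 with KPT-330, when the mitosis and cytokinesis genes stood at 60.4 and 48.8. At day 1 it was 20.9 and 14.9. Over days 0.25 to 2 their median log2 fold change was -0.63, with 0 of 37 called by edgeR and 29 at an unadjusted p under 0.05, and over days 3 to 6 it was -0.81 with 27 called lower. Among all genes, 8.14% were lower early at an unadjusted p under 0.05, and 13.6% were called lower late. Late, the mitosis and cytokinesis genes had the larger median reduction (-1.30), and early the smaller (-0.24). The difference between the lists was not tested. All 37 replication genes fell with day in untreated organoids, against 19.9% of all genes.

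Of 70 other genes of mitosis that were tested, 45 fell late with KPT-330 and 1 rose, with a median log2 fold change of -1.11, and 55 fell with day in untreated organoids and 1 rose. Among all genes, 13.6% were called lower late and 19.9% with day. None of the 70 was called early by edgeR, where the median was -0.27. At an unadjusted p under 0.05 there were 13, against 1911 of 12812 genes in either direction. The extremes of the early fold change were Ska1 (-1.23 ± 0.29, adjusted p = 0.090) and Cenpm (-1.21 ± 0.25, adjusted p = 0.052), both of the kinetochore, and Fzr1 (0.46 ± 0.14, adjusted p = 0.17), an activator of the anaphase-promoting complex in G1, and Fam83d (0.49 ± 0.41, adjusted p = 0.62). Looked up after their values were seen, the gene that rose late was Zwint (0.63 ± 0.19, adjusted p = 0.027), a kinetochore protein, and the gene that rose with day was Mad2l2 (slope 0.17, adjusted p = 0.022), which acts outside the spindle checkpoint in DNA repair.

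At the level of single cells, fewer cells were rich in these transcripts late with KPT-330. Each cell was thinned to 1500 UMIs, and cells with 5 or more UMIs of the 50 genes were counted. At day 0 they made up 50.3% and 62.6% of cells. Without KPT-330 the share was 61.1% at day 0.25, 19.6% at day 1, 8.88% at day 2, 4.55% at day 3, 4.60% at day 4, and 6.00% and 6.87% at day 6. With KPT-330 it was 49.3% at day 0.25, 18.0% at day 1, 5.67% at day 2, 2.76% and 0.585% at day 3, 1.06% at day 4, and 1.42% and 1.85% at day 6. From day 3 every KPT-330 library lay below every control library, and the ratio of shares was 0.367 at day 3, 0.231 at day 4 and 0.254 at day 6, against 0.807, 0.916 and 0.638 at the early days. Such cells carried a median of 14 to 19 UMIs of the 50 genes in the late controls and 8 to 18.5 in the late KPT-330 libraries, in which 8 to 31 such cells were found. The ratio of their mean content was 0.865 at day 3, 0.883 at day 4 and 0.690 at day 6. Without thinning the share was 8.66% to 16.7% in the late controls and 1.49% to 8.53% with KPT-330, a comparison in which cells differ in depth. Cells under 1500 UMIs were left out, 10 in ENR+CV, 66 in ENR+CD and 159 with KPT-330. No TMM scaling enters these shares.

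**Figure D5:**
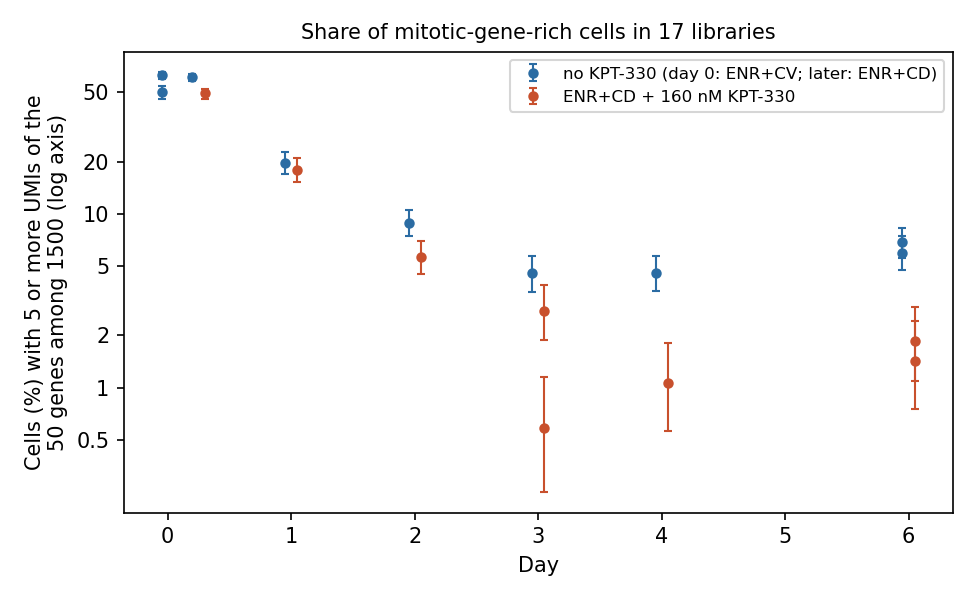
Percentage of cells (log axis) with 5 or more UMIs of the 50 genes after thinning to 1500 UMIs, against day, 1 point per library with its exact 95% binomial interval. The late KPT-330 libraries lie at 0.585% to 2.76% and the late controls at 4.55% to 6.87%.

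Most of these cells also carried replication transcripts. Cells with at least 2 UMIs of the 37 DNA replication genes, which were chosen without the mitosis genes, were 21.2% to 26.4% of cells in the late controls and 9.84% to 13.9% with KPT-330. They included 72.2% to 87.1% of the cells with 5 or more mitosis UMIs at days 3 to 6. Cells with no replication UMI had 5 or more mitosis UMIs in 0.299% to 0.849% of cases in the late controls and in at most 0.335% with KPT-330. At day 0 that share was 8.99% and 20.8%. In untreated libraries the summed level of each gene was higher in replication-positive cells than in cells without a replication UMI, by a median factor of 9.83 over the 50 genes, and in every one of the 9 libraries for 49 genes. The lowest factors were those of Pttg1 (1.44), Bub3 (1.98), Cks1b (2.88) and Cks2 (3.29), and the highest those of Ndc80 (22.6) and Bub1 (18.2). These factors were not given for all genes, so they and the count of 49 have no background.

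Within replication-positive cells alone, 16 of the 50 genes were lower late with KPT-330, against 3.43% of 11160 genes, and 31 were lower at an unadjusted p under 0.05, against 10.8% of all genes. The median log2 fold change was -0.67, against -1.30 over all cells. The lowest values were those of Kif2c (-1.53, adjusted p = 0.021), Ttk (-1.23, adjusted p = 0.012), Cdc20 (-1.16, adjusted p = 0.030) and Nusap1 (-1.13, adjusted p = 0.037), which bundles spindle microtubules. This count rested on few cells (90 to 408 per late library) and on single libraries: it was 1 without the control of day 3, 28 without replicate 1 of KPT-330 at day 3, and 7 to 15 without any other of the 13 libraries. Requiring 3 replication UMIs left 0 genes called by edgeR, with a median of -0.37. Early, 0 of 50 genes were called in these cells by edgeR and by DESeq2, with 0 at an unadjusted p under 0.05 in each, a median of -0.11 and 0.0358% of all genes called lower. That early median turned to 0.03 without the control library of day 2, 0.05 without the KPT-330 library of day 2 and 0.03 with at least 3 replication UMIs. The replication genes that selected these cells were themselves lower with KPT-330 within them (median log2 fold change -0.51 early and -0.31 late). The cells selected can therefore differ between conditions, which was not tested.

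Markers of several lineages moved with the treatment. In the late libraries the summed markers of stem cells were 11.1 to 17.8 UMIs per 10000 in control and 4.25 to 7.75 with KPT-330. Those of Paneth cells were 332 to 765 and 530 to 1227, those of goblet cells 89.4 to 109 and 115 to 157, and those of enteroendocrine cells 35.0 to 62.9 and 7.90 to 41.5, and those of enterocytes 9.69 to 23.2 and 4.99 to 65.3, with 5 of 5 markers of each list detected. Their part in the result was not tested. Replicate 1 of KPT-330 at day 6 had the highest median share of mitochondrial UMIs of the late libraries (16.5%), and without it 40 of the 50 genes were called lower late. Among all genes, 1284 of 12811 were called lower without it.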

How the data were processed

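Single-cell transcriptomes of 17 samples were analysed, grouped by the labels. The authors demultiplexed with bcl2fastq, aligned to mm10 with STAR and collapsed reads with the Drop-seq pipeline, and deposited UMI counts per gene and barcode without normalization. From the 26229 barcodes the 19877 that the authors kept (at least 500 genes, at most 35% mitochondrial UMIs and 30000 UMIs, housekeeping and doublet filters) were used; the last 2 filters were not repeated.

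Counts were summed per library and tested with the quasi-likelihood test of edgeR 4.0.16 in R 4.3.3 (TMM factors, filterByExpr, day as a factor, Benjamini-Hochberg over all genes, threshold 0.05), with DESeq2 1.42.0 as an alternative. Standard errors come from the fold change and the F statistic. Steps were tested on simulated data. Cells were thinned with Python 3.11.15 and numpy 2.4.6. Coordinates are from GENCODE M21 (GRCm38).

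The members and lists were chosen with earlier results of these data known. Values per library are given for the 2 genes of each role with the most UMIs and the 3 smallest p-values of each comparison. For genes that are no members, the 2 smallest and 2 largest early fold changes among the other mitosis genes were named. Alternatives were other factors, filters, cell sets, day boundaries, left-out libraries and the replicate block. Depth limits single-cell values to a few UMIs of each gene.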

Additional observations from a re-analysis of the deposited data

Results flagged for a closer look

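The only value marked for a closer look came from barcodes outside the kept cells. In replicate 2 of KPT-330 at day 6, 129 barcodes within the stated limits on genes, UMIs and mitochondrial share were set aside by the authors. They carried 30.8 UMIs of the 50 genes per 10000, above both controls of that day, whose set-aside barcodes carried 11.7 and 23.3. The kept cells of that library carried 4.48. Its set-aside barcodes also carried 24.6 UMIs of the DNA replication genes per 10000, and their median was 2238 UMIs. In replicate 1 of KPT-330 at day 6 the 430 set-aside barcodes carried 9.38, against 2.87 in kept cells, and at day 4 the values with KPT-330 were 9.65 and 3.05. This comparison of set-aside barcodes was added after the data were seen, and its part in the late result was tested only by adding all barcodes within the stated limits, which gave 43 genes called lower and a median log2 fold change of -0.97. Among all genes, 1643 of 13046 were called lower in that fit.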

How the results depend on the processing

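Late with KPT-330, the count of genes called lower stayed within 1.5 times 44 under every alternative run (40 to 46 with single libraries left out), and no call of a named gene changed direction under any alternative. Among all genes, 948 of 12545 to 2055 of 12777 were called lower with single libraries left out. The late median was -1.68 with library totals alone, which moved the median of all genes by -0.38 late and -0.10 early and the late split of all genes from 1747 lower and 1956 higher to 5621 and 381, and -0.97 with all barcodes within limits. With single libraries left out it ran from -1.56 to -1.15. Early, 3 genes were called without the count filter and 2 in a separate fit, in place of 0, and none with any single library left out. Among all genes, 355 of 24050 were called lower without the filter and 253 of 11956 in the separate fit. For the late minus early difference, 29 were called without the count filter and 11 by DESeq2, and 0 to 6 with single libraries left out. The median of that difference was -0.66 with all barcodes within limits. The untreated slope called 28 without ENR+CV. In replication-positive cells late, 37 genes were called at 1 or more replication UMIs, 0 at 3 or more and 33 with library totals. All-gene counts called lower were 1244 of 12032, 40 of 10453 and 1513 of 11160, against 383 of 11160 in the main fit. Library totals moved the median of all genes in these cells by -0.26 late. With single libraries left out, 1 to 28 of the 50 genes were called, where the lowest lacked the control of day 3. All-gene counts called lower were 89 of 11009 in the fit with 1 and 355 of 11171 in the fit with 28. Early in these cells, where no gene was called, the median of -0.11 turned positive without either day 2 library and at 3 or more replication UMIs. The mean over days of the log2 ratio of cell shares, -1.10 with an SD of 0.86, moved by less than that SD under each other threshold, depth or set of barcodes. The daily ratios ran from -0.13 at day 1 to -2.12 at day 4. This SD therefore includes the change from early to late and is a wide margin that says little about stability. For the single named genes, 2036 alternative values stayed on their side of the threshold, 40 lost the call and 40 gained it. With the replicate number as a block, counts were 0 early, 44 late, 0 for the difference, 48 for the slope and 15 in replication-positive cells late. Among all genes, 29 of 12812 were called lower early, 1897 late and 0 for the difference. For the slope the all-gene count was 2351 of 12844, and in replication-positive cells late it was 390 of 11160. The replicate numbers share no stated source, and the day 6 differences correlated by 0.487 between conditions over 11906 genes. Most days have 1 library per condition, so a day and its library cannot be told apart.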

Other observations

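In the untreated libraries of later days, a smaller share of cells was rich in mitosis transcripts, and the median count in those cells was higher in most libraries than at day 0. Among 1500 UMIs, cells with 5 or more UMIs of the 50 genes held a median of 10 and 12 at day 0, 11 at day 0.25, 12.5 at day 1, 15 at day 2, 17 at day 3, 19 at day 4, and 14 and 19 at day 6. Cells without any such UMI were 19.5% and 10.2% at day 0 and 66.2% to 68.4% in the late controls. A UMI of Mki67 was found in 56.0% and 68.1% of thinned cells at day 0, in 7.12% to 9.01% in the late controls and in 2.47% to 4.71% in the late KPT-330 libraries. For Bub3 these shares were 10.5% and 12.2%, 5.76% to 7.83%, and 2.84% to 7.41%. The cell counts behind these medians were 263 and 916 at day 0 and 67 to 93 in the late controls, and no test was made.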
